A study of Mus musculus with 12 samples.

Results

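The mRNA of 9 transcription factor genes of hepatocytes was described in livers of hFIX-R29X hemophilia B mice. They were the 4 nuclear factor I genes Nfia, Nfib, Nfic and Nfix, the 3 FOXA genes Foxa1, Foxa2 and Foxa3, and Cebpa and Prox1. All 9 members were found by gene symbol among the 31114 genes measured, and 8 of 9 were among the 8846 genes that passed the filter for testing, 5 TPM or more in 4 or more livers. TPM is a transcript's abundance corrected for its length and scaled by the authors to a common total. Foxa1, the exception, reached at most 4.92 TPM. Nfia was chosen by its lower mRNA level under the Upf3b-ASO, so its values in treated livers are given as a description, with no test. The members were named with earlier results of these data known.

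All 3 groups were hFIX-R29X mice of 8 to 14 weeks, without mouse F9 and with a minigene of human factor IX that holds the R29X nonsense codon and is driven in hepatocytes by the human transthyretin promoter. Each group held 4 livers, from 2 females (replicates 1 and 2) and 2 males (replicates 3 and 4). One group received the vehicle DPBS (DBPS in a label), another Control-GalNAc-ASO, an antisense oligonucleotide of 15 mg/kg per dose, and the last Upf3b-GalNAc-ASO, of 10 mg/kg per dose. Of 6 doses 1 was given every 5 days, and the liver was taken 48 h after the last. Both ASOs carried N-acetylgalactosamine (GalNAc), a sugar bound by the asialoglycoprotein receptor of hepatocytes, while RNA came from whole liver. The doses of the ASOs differed, and dose and sequence cannot be told apart.

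Nuclear factor I proteins bind DNA as dimers and act as activators or repressors at many enhancers, including those of liver genes. FOXA proteins are pioneer factors that open chromatin for other factors in the developing and adult liver. Cebpa encodes C/EBPα, a bZIP activator of metabolic genes in mature hepatocytes, and Prox1 encodes a homeobox factor needed for hepatocyte migration and for repression of bile acid synthesis. Upf3b, the ASO target, is a factor of nonsense-mediated mRNA decay (NMD), which degrades transcripts with premature stop codons.

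The ASO sequences are shown so that they can be set beside the members' own transcripts. Capitals mark the modified wings of 3 bases, around a gap of 10 DNA bases that lets RNase H cut the bound RNA.

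Upf3b-ASO: GGAtatagatgtaACG
Control-ASO: GGCcaatacgccgTCA

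The complement of the Upf3b-ASO was found in the mature transcripts of 1 gene, Upf3b. It lay in the 3′ UTR in exon 10 of 10 of the transcript Upf3b-201, at chrX:37091973-37091988 on the minus strand of GRCm38. Among the members the closest mature stretch had 4 mismatches in Nfib, at chr4:82295095-82295110, a distance reached by 8.83% of the 8840 tested genes with sequence. In Nfia it had 5 mismatches, at chr4:98111878-98111893, and 49.6% of tested genes came as close or closer. Both stretches lay in 3′ UTRs. The target and these stretches follow, with the bases that match the target in capitals for the members.

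Upf3b target: cgttacatctatatcc
Nfib: aGTTACAcCTtTATCt
Nfia: aGTTACATacATAaCa

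Nfic, Nfix, Foxa1, Cebpa and Prox1 had 5 mismatches at best, and Foxa2 and Foxa3 had 6. Introns were not searched.

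The NFI genes are close relatives, and reads that fit several of them could have moved between their estimates. The most alike coding stretch of 90 bases, in the N-terminal DNA-binding domain, was identical in all 4 genes at 67 positions, shown in capitals.

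Nfia: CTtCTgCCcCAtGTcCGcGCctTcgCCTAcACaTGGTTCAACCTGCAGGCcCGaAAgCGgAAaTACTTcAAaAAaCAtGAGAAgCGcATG
Nfib: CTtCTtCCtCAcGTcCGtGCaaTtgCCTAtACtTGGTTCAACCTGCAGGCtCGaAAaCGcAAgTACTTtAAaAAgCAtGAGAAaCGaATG
Nfic: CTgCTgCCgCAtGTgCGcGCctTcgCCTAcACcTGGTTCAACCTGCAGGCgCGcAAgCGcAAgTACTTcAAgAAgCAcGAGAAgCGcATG
Nfix: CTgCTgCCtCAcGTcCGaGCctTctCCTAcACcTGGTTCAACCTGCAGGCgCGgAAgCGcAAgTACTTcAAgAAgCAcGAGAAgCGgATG

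Each stretch lay within 1 coding exon of GRCm38, at chr4:97783109-97783198 (plus strand), chr4:82498653-82498742, chr10:81420682-81420771 and chr8:84772199-84772288 (minus strand). The longest run shared by all 4 was 17 bases. Transcripts of Nfia and Nfib held no sequence of 31 bases, a length often used to index transcripts for read assignment, that any other member held. Nfic and Nfix shared 2 such sequences, and Foxa1 and Foxa2 shared 8. The coding run of 32 bases that Nfic and Nfix share is shown because a read lying within it cannot be told to come from one or the other.

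Nfic and Nfix: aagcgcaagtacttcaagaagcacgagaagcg

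At most 0.283% of the 31-base sequences of a member were also in transcripts of genes outside the list.

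Depth was 13277892 to 17054313 estimated counts per liver in the Upf3b-ASO group and 17642996 to 20387682 in the other livers. Raw counts of treated livers and of the others are therefore not at equal depth. Upf3b, covered by 10 to 22 counts in treated livers and 110 to 227 in the others, was 0.974 ± 0.432 CPM in the Upf3b-ASO group (counts scaled to a common TMM-normalized library size; SD, n = 4), 9.52 ± 1.78 CPM with control ASO and 11.03 ± 1.75 CPM with DPBS. It fell by 3.30 ± 0.27 (log2 fold change ± SE) against control ASO, at an adjusted p of 7.43e-05 in edgeR's quasi-likelihood test. The male control ASO liver of replicate 3 stood apart from the other livers, with a score of 55.94 on the second principal component against -28.5 to 13.52 elsewhere. It was the lowest of the control ASO livers for 7 of 9 members and the lowest of all 12 livers for 5 of 9, compared with 42.7% and 32.0% of tested genes. Values of the members without it are given beside the comparisons. Why it stood apart was not tested.

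Members differed widely in level. In DPBS livers Cebpa was highest at 251.1 ± 35.3 TPM (SD, n = 4), above every other member in every liver of the group. Foxa3 at 31.4 ± 7.66 TPM, Nfib at 28.4 ± 3.17 TPM, Prox1 at 20.4 ± 5.43 TPM and Foxa2 at 17.8 ± 2.13 TPM came next. They were followed by Nfix at 17.2 ± 0.767 TPM, Nfia at 16.6 ± 3.38 TPM and Nfic at 14.4 ± 1.37 TPM, and the range of each from Foxa3 to Nfix overlapped that of the next in this order, as did that of Nfia and Nfic. Foxa1 was lowest at 3.54 ± 0.815 TPM, below every value of Nfic.

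Nfia mRNA was lower in all 4 Upf3b-ASO livers than in any other liver. Nfia was at 59.1, 53.2, 55.7 and 49.4 CPM in DPBS livers 1 to 4. Control ASO livers had 58.3, 59.9, 47.7 and 49.6 CPM. In Upf3b-ASO livers it was 20.4, 18.4, 17.6 and 13.6 CPM. The highest treated liver was below the lowest untreated one, and both comparisons gave about the same size, a log2 fold change of -1.62 ± 0.10 (SE) against control ASO and -1.64 ± 0.10 against DPBS. This left 32.5% and 32.0% of the level of each reference group. Control ASO and DPBS livers overlapped, with a log2 fold change of -0.02 ± 0.10 between them and an adjusted p of 0.938 in edgeR's test. In whole liver, fewer cells of a type and less RNA per cell cannot be told apart.

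**Figure D1:**
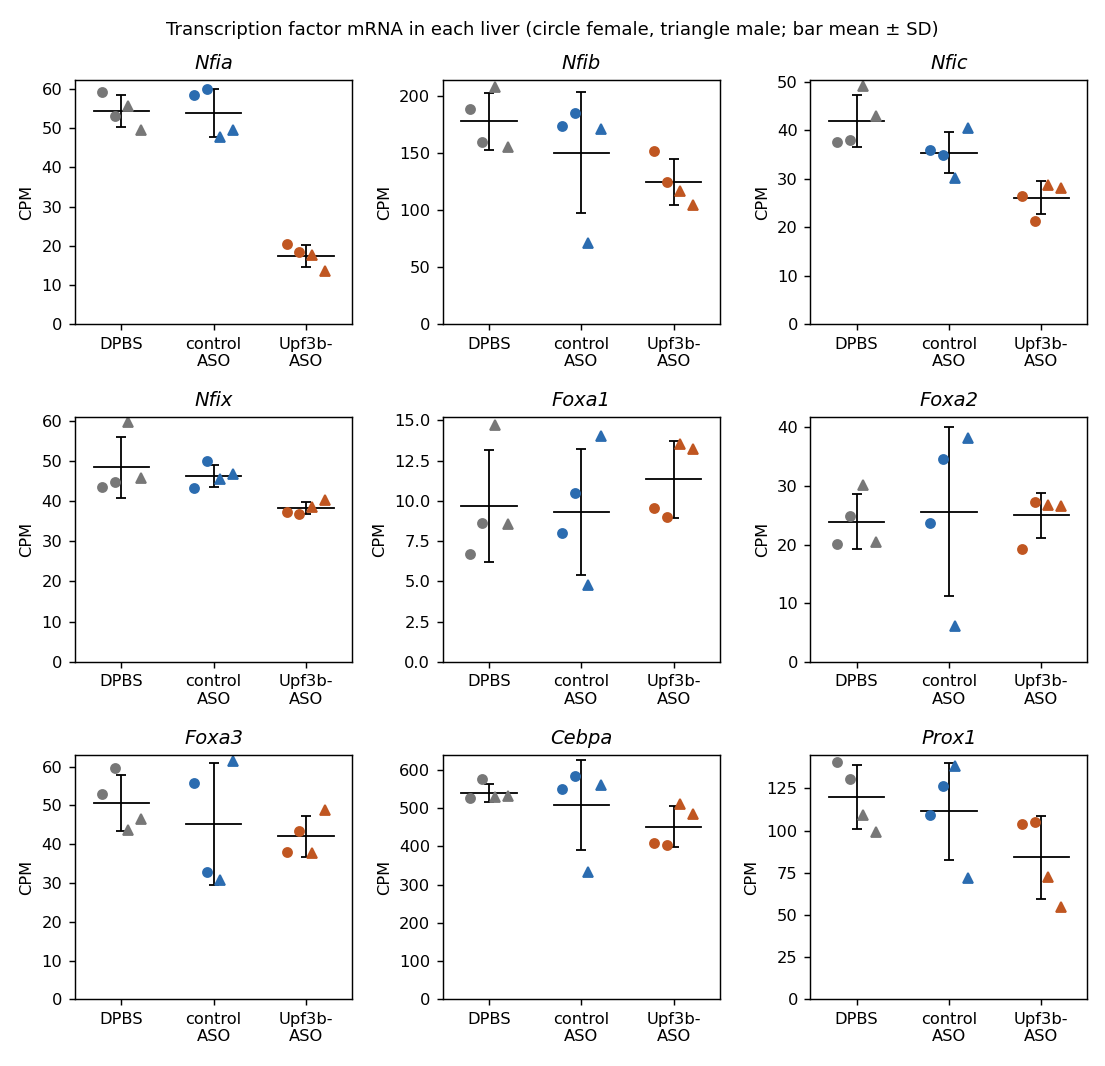
CPM of the 9 members in each liver by group, with the mean and SD over 4 livers as black bars, circles for females and triangles for males. The 4 Upf3b-ASO livers lie between 13.6 and 20.4 CPM for Nfia, below all others, and control ASO liver 3 is the low triangle for Nfib, Foxa1, Foxa2 and Cebpa.

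The size of the Nfia difference depended on how isoforms entered it. The gene (chr4:97772734-98118874 of GRCm38, plus strand) had 8 transcripts in the files. Of these, 5 coding isoforms of over 8000 bases run to the 3′ end of the gene, and 3 transcripts are shorter than 2000 bases. The long isoforms summed to 7.28, 6.12, 5.33 and 5.21 TPM in DPBS livers and 7.03, 6.62, 3.81 and 5.16 TPM in the control ASO group. In Upf3b-ASO livers they summed to 2.12, 2.07, 1.60 and 1.16 TPM, which is 30.7% of the control ASO mean and 29.0% of the DPBS mean. All 4 treated values were again below all 8 others.

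The short Nfia transcripts differed less. They summed to 13.8, 11.2, 8.02 and 9.49 TPM with DPBS, 12.9, 13.6, 6.36 and 8.54 TPM with control ASO and 7.47, 6.55, 5.10 and 3.30 TPM with Upf3b-ASO. All treated livers were below all DPBS livers and below the control ASO livers apart from replicate 3, and the treated mean was 54.1% of control ASO and 52.8% of DPBS. In CPM, where the short transcripts were at 2.5 to 4.13 in treated livers and 4.95 to 7.90 in the others, no liver overlapped. The long isoforms held 36.3 ± 2.45% (SD, n = 4) of Nfia TPM with DPBS, 35.8 ± 2.31% with control ASO and 24.0 ± 1.61% with Upf3b-ASO. Treated livers, at 22.1 to 26.0%, did not overlap the 32.7 to 39.9% of the other 8. In counts the long isoforms dominated, with 168 to 276 counts per treated liver and 589 to 995 in the others, compared with 37 to 63 and 73 to 141 counts for the short transcripts.

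**Figure D2:**
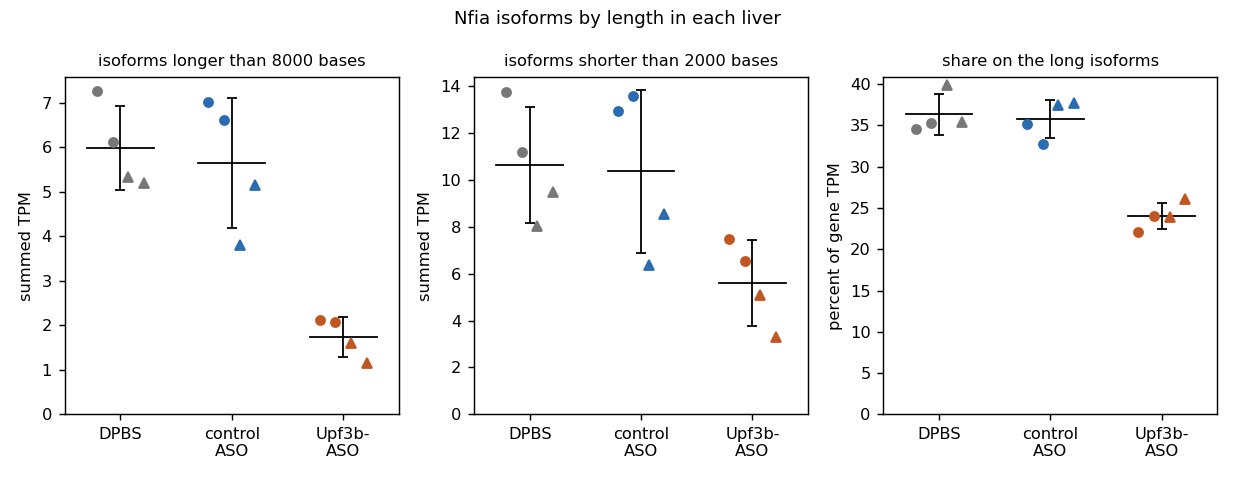
Summed TPM of Nfia isoforms longer than 8000 bases, of those shorter than 2000 bases, and the percent of Nfia TPM on the long ones, per liver with the mean and SD over 4 livers (circles females, triangles males). Treated livers lie apart from all others for the long isoforms and for their share, and for the short transcripts they lie below all others but control ASO liver 3, at 6.36 TPM.

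Among single Nfia isoforms with at least 10% of the gene's TPM in a group, 2 were short and 1 was long. Nfia-208, of 851 bases and 4 exons and annotated with an incomplete coding end, was at 6.06 ± 2.10 TPM with DPBS, 5.80 ± 2.03 TPM with control ASO and 2.82 ± 1.39 TPM with Upf3b-ASO. Nfia-207, of 821 bases and incomplete at both ends, was at 3.89 ± 0.824, 4.04 ± 1.32 and 2.41 ± 0.498 TPM in these groups. The long isoform Nfia-204, which has 7 exons, was at 1.19 ± 0.874, 2.20 ± 1.153 and 0.284 ± 0.333 TPM. Its level was 0 in 2 of the treated livers, and its share of the gene varied between 0.51% and 13.5% within the DPBS group, so that a single long isoform was less stable than their sum.

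With an offset for the mean transcript length of the gene in each liver, the Nfia difference was -1.18 on the log2 scale against each of control ASO and DPBS, or 44.1% and 44.0% of their levels. On log2(TPM + 1), a scale on which changes of low genes are understated, it was -1.02 and -1.10. With the smaller offset of log2(TPM + 0.1) it was -1.12 and -1.20. Joined genes held a smaller part of TPM in some livers, and with their TPM rescaled to a common total it was -0.95 and -1.02 on log2(TPM + 1). Summed TPM of the gene was 16.01 ± 4.93 with control ASO and 7.34 ± 2.26 with Upf3b-ASO. In TPM that was not rescaled, all treated livers (4.46 to 9.59 TPM) were below all others (10.18 to 21.03 TPM). The nearest livers, Upf3b-ASO liver 1 and control ASO liver 3, had 84.59% and 91.23% of their TPM on joined genes. Rescaling reversed their order, so treated and other livers overlapped in rescaled TPM.

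Leaving Nfia aside, Nfic (chr10:81396186-81455635, minus strand) was the only member called lower against both groups. Its CPM was 37.7, 38.1, 49.1 and 43.0 with DPBS, 36.0, 35.0, 30.2 and 40.4 with control ASO and 26.5, 21.3, 28.6 and 28.0 with Upf3b-ASO. All treated livers were below all other livers. Nfic fell by 0.45 ± 0.12 (log2 fold change ± SE) against control ASO, with an adjusted p of 0.0341, and by 0.68 ± 0.12 against DPBS, with an adjusted p of 0.00462, in edgeR's test. The call against control ASO was lost in 9 of 12 alternative settings, at adjusted p from 0.0536 with another filter on low counts and 0.0621 with the replicate block to 0.328 on rescaled TPM, and without each of 9 of the 12 livers in turn (0.0508 to 0.098). Against DPBS it was kept without any single liver. It was lost in limma on log2(TPM + 1), log2(TPM + 0.1) and rescaled TPM, at adjusted p of 0.055, 0.0577 and 0.0955.

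Nfix and Nfib showed smaller differences. Nfix (chr8:84699876-84800344, minus strand) had 43.5, 44.6, 59.7 and 45.7 CPM with DPBS, 43.3, 49.9, 45.5 and 46.7 CPM with control ASO and 37.3, 36.7, 38.6 and 40.1 CPM with Upf3b-ASO. The treated livers lay below all the others, by little. The log2 fold change was -0.28 ± 0.10 against control ASO, with an adjusted p of 0.0964, and -0.34 ± 0.10 against DPBS, with an adjusted p of 0.0602 in edgeR, so neither passed. Against DPBS it passed in 3 of 12 alternative settings. Adjusted p was 0.0217 in DESeq2's Wald test, 0.0239 in edgeR on only the 2 groups and 0.00977 in limma with sample quality weights. Against control ASO it passed in 1 of 12, limma with quality weights (adjusted p = 0.00699), and in edgeR without DPBS liver 3 (adjusted p = 0.0419).

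Nfib (chr4:82290173-82705750, minus strand), the most abundant NFI gene, was at 188.8, 159.5, 207.6 and 155.5 CPM in the DPBS group. It was at 173.9, 185.2, 71.4 and 171.1 CPM with control ASO and 152.1, 124.6, 117.1 and 104.3 CPM with Upf3b-ASO. Treated livers were below all DPBS livers and below 3 of the 4 control ASO livers, the exception being replicate 3. The log2 fold changes of -0.26 ± 0.24 against control ASO and -0.53 ± 0.24 against DPBS did not pass, with adjusted p of 0.498 and 0.21 in edgeR's test. Against DPBS it passed in 2 of 12 alternative settings, edgeR on only the 2 groups (adjusted p = 0.0161) and limma with quality weights (adjusted p = 0.00439). Against control ASO it passed in 1 of 12, limma with quality weights (adjusted p = 0.005).

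Nfia, Nfic and Nfix, 3 of the 9 members, thus had all 4 treated livers below the other 8, compared with 5.37% of tested genes. Nfia was in this count by choice. Nfia and Nfib are long genes, spanning 346.1 and 415.6 kb, while Nfix spans 100.5 kb and Nfic 59.5 kb. Of the 135 tested genes that span 300 kb or more, 36.3% were called lower in Upf3b-ASO than in control ASO livers, against 5.95% of all tested genes. Their median log2 fold change was -0.49. Nfia and Nfib are themselves in this set, and the part of gene length in their values was not tested.

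Cebpa, a gene of 1 exon (chr7:35119293-35121928, plus strand), was at 525.7, 575.5, 529.3 and 530.3 CPM in the DPBS group. The control ASO group held 551.0, 584.3, 332.3 and 560.7 CPM, and the Upf3b-ASO group 408.9, 402.3, 510.2 and 483.7 CPM. All treated livers were below all DPBS livers, and below the control ASO livers apart from replicate 3. The log2 fold change was -0.16 ± 0.17 against control ASO and -0.26 ± 0.17 against DPBS, with adjusted p of 0.547 and 0.4 in edgeR. It passed in 1 of 12 alternative settings against control ASO and in 2 of 12 against DPBS.

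Prox1 (chr1:190118035-190170714, minus strand) was at 140.5, 130.7, 109.0 and 98.9 CPM with DPBS, 109.4, 126.1, 138.0 and 72.1 CPM with control ASO and 104.1, 104.9, 72.5 and 54.7 CPM with Upf3b-ASO. The groups overlapped, with the males of the DPBS and Upf3b-ASO groups below the females. Its log2 fold changes of -0.44 ± 0.19 and -0.53 ± 0.19, against control ASO and DPBS, did not pass (edgeR adjusted p = 0.156 and 0.114). Against DPBS it passed in 2 of 12 alternative settings, and against control ASO in none.

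The FOXA genes gave no call in either comparison. Foxa2 (chr2:148042877-148046969, minus strand) had 20.1, 24.9, 30.2 and 20.4 CPM with DPBS, 23.7, 34.5, 6.05 and 38.1 CPM with control ASO and 19.2, 27.3, 26.8 and 26.6 CPM with Upf3b-ASO. The treated range lay within that of the control ASO group, whose lowest liver was replicate 3, and the log2 fold changes were -0.04 ± 0.42 and 0.06 ± 0.42. Foxa3 (chr7:19013284-19023538, minus strand) had 52.8, 59.5, 43.5 and 46.5 CPM with DPBS, 55.7, 32.8, 30.7 and 61.4 CPM with control ASO and 37.9, 43.5, 37.8 and 48.7 CPM with Upf3b-ASO. Its groups overlapped as well, with log2 fold changes of -0.11 ± 0.22 and -0.27 ± 0.22. Foxa1 (chr12:57540628-57546916, minus strand) had 6.71, 8.63, 14.7 and 8.58 CPM with DPBS, 7.98, 10.5, 4.76 and 14.0 CPM with control ASO and 9.54, 9.01, 13.5 and 13.2 CPM with Upf3b-ASO. Its groups overlapped too. It could be tested with the filter of edgeR's filterByExpr, where its log2 fold change was 0.26 ± 0.30 against control ASO, with an adjusted p of 0.622.

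**Figure D3:**
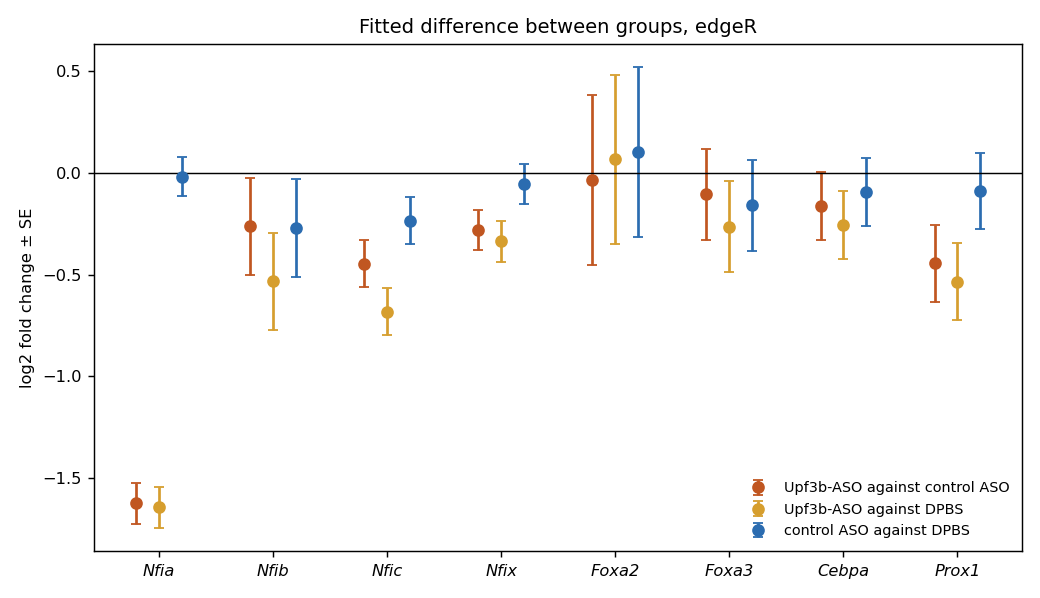
Log2 fold change with its SE from edgeR for the 8 tested members in the 3 treatment comparisons, fitted over all 12 livers. Nfia lies at -1.62 and -1.64 in the Upf3b-ASO comparisons, Nfic at -0.45 and -0.68, and the control ASO against DPBS values of all 8 lie between -0.27 and 0.10.

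Besides Nfia, 1 of the 7 tested members (Nfic) was called lower against control ASO and 1 of 7 (Nfic) against DPBS, with 5.95% and 5.36% of all tested genes called lower in these comparisons. The median log2 fold change of the 7 was -0.26 against control ASO and -0.34 against DPBS, where the median of all tested genes was -0.02 and 0.00. No member was called higher. Both comparisons use the same treated livers, so they are not independent of each other.

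Leaving out control ASO liver 3 changed the calls of several members. Besides Nfia, 4 of 7 members were then called lower against control ASO, with 13.5% of all tested genes. These were Nfic, which fell by 0.55 ± 0.08 on the log2 scale at an adjusted p of 0.00087, Nfib (0.49 ± 0.13 lower, adjusted p = 0.0178), Cebpa (0.34 ± 0.09 lower, adjusted p = 0.0196) and Nfix (0.31 ± 0.10 lower, adjusted p = 0.0442), all from edgeR. Against DPBS the same 4 and Prox1 were called, 5 of 7, with 15.0% of all tested genes. Prox1 fell by 0.54 ± 0.10 against DPBS, with an adjusted p of 0.00282, and its value against control ASO was -0.19 ± 0.11 without the liver, with an adjusted p of 0.228 in edgeR. Foxa2 and Foxa3 were not called without this liver either, but their values against control ASO moved from -0.04 to -0.39 ± 0.17 and from -0.11 to -0.25 ± 0.19.

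**Figure D4:**
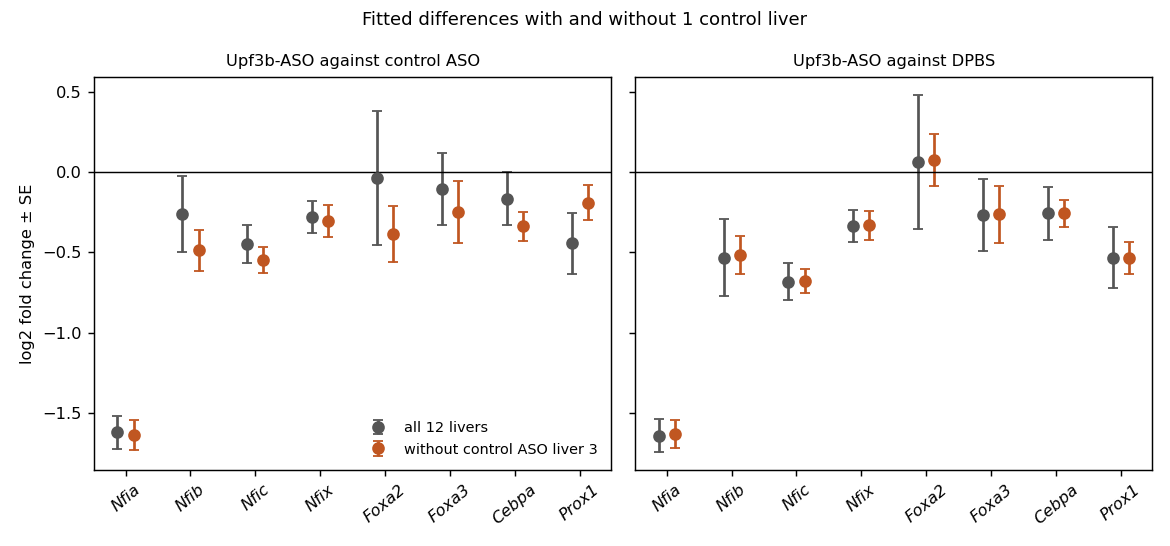
Log2 fold change with its SE of the 8 tested members in the 2 Upf3b-ASO comparisons, with all 12 livers (grey) and without control ASO liver 3 (orange). Nfia stays near -1.6, and against control ASO the values of Nfib and Cebpa move from -0.26 to -0.49 and from -0.16 to -0.34.

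The distance of control ASO liver 3 from its group was uneven among members. It held 18.9% of the mean of the other 3 control ASO livers for Foxa2, 40.4% for Nfib, 43.9% for Foxa1, 58.8% for Cebpa and 61.4% for Foxa3. For Nfix it held 97.5%, and for Prox1 134.6%. Nfia, at 85.3%, and Nfic, at 81.3%, were only slightly lower there than in the rest of the group.

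No member differed by the test between control ASO and DPBS. None of the 8 tested members was called, with 0.0113% of tested genes called in this comparison (1 gene in edgeR and 43 in DESeq2, and 617 at an unadjusted p under 0.05). Nfib had the lowest value, -0.27 ± 0.24, and without control ASO liver 3 it was -0.03 ± 0.13. Without that liver Prox1 was lowest at -0.34 ± 0.11 and Foxa2 highest at 0.46 ± 0.17, and neither passed (edgeR adjusted p = 0.288 and 0.398).

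Isoforms of the members other than Nfia showed no call. They had 36 transcripts in the files, of which 22 passed the transcript filter, 1 TPM or more in 4 or more livers. None of the 22 was called in level between Upf3b-ASO and control ASO livers, and none of the 19 that could be tested was called in its share of the gene. Of all tested transcripts, 1.0% and 0.125% were called. Both tests took the estimated counts as fixed, and the uncertainty of dividing reads among isoforms was not modelled. Nfib-202 held the most Nfib, with 42.7 ± 3.04% of the gene's TPM under DPBS, 37.7 ± 6.13% under control ASO and 42.7 ± 7.48% under Upf3b-ASO. Nfib-201 held 19.4 ± 5.76%, 23.6 ± 5.17% and 19.2 ± 4.77%, and Nfib-203 held 15.7 ± 3.65%, 15.5 ± 2.11% and 14.6 ± 3.83%, in the same order of groups. Nfix was split between Nfix-204, with 46.9 ± 3.16%, 42.5 ± 2.46% and 42.8 ± 1.73%, Nfix-201, with 35.4 ± 6.86%, 42.6 ± 4.12% and 33.7 ± 7.85%, and Nfix-202, with 13.7 ± 7.01%, 9.46 ± 5.08% and 15.7 ± 9.87%.

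Nfic was split mainly between Nfic-203, with 33.4 ± 5.50%, 32.0 ± 1.74% and 33.4 ± 2.27% of TPM, and Nfic-204, with 34.6 ± 2.64%, 32.2 ± 5.88% and 30.1 ± 8.71%. Nfic-203 was at 4.76 ± 0.409, 3.80 ± 1.01 and 2.97 ± 0.364 TPM, and Nfic-204 at 4.96 ± 0.255, 3.74 ± 0.930 and 2.67 ± 0.828 TPM, in DPBS, control ASO and Upf3b-ASO livers. Both had their lowest mean in treated livers, and neither passed the test against control ASO (edgeR adjusted p = 0.438 and 0.413). The rest of Nfic was divided unstably, with Nfic-201 between 0.31% and 25.4% of the gene within the DPBS group and Nfic-202 between 0.017% and 21.2%. Prox1-202 held 78.4 ± 2.85% of Prox1 with DPBS and 80.2 ± 5.23% with Upf3b-ASO, and Prox1-201 held 15.9 ± 2.26% and 15.7 ± 4.51%. Foxa2-201 held 36.1 ± 4.14%, 48.6 ± 15.97% and 57.5 ± 14.7% of Foxa2 in the 3 groups, Foxa2-202 held 33.3 ± 3.14%, 26.9 ± 18.7% and 14.6 ± 10.5%, and Foxa2-203 held 29.0 ± 4.58%, 24.6 ± 4.68% and 23.5 ± 1.92%. The ranges of all 3 overlapped between Upf3b-ASO and control ASO livers. Against DPBS the share of Foxa2-202 did not overlap, at 0.33 to 25.5% with Upf3b-ASO and 30.3 to 37.2% with DPBS, and isoforms were not tested in that comparison. Foxa1, Foxa3 and Cebpa had 1 transcript each. No transcript of a member carried the nonsense_mediated_decay biotype, the annotation of isoforms predicted to be NMD targets.

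Differences between the sexes depended on the unit. In counts none of the 8 passed the test of males against females over all groups, in which 10.0% of tested genes were called. Prox1 was lower in males by 0.42 ± 0.15 (log2, adjusted p = 0.122) and Nfia by 0.23 ± 0.08 (log2, adjusted p = 0.107), both in edgeR. On log2(TPM + 1), limma called Prox1 (-0.71, adjusted p = 0.0049), Nfia (-0.59, adjusted p = 0.00506) and Nfib (-0.65, adjusted p = 0.0464) lower in males, 3 of 8 members, with 34.6% of all tested genes called. All 8 members had lower values on this scale than in counts, where TPM entered without TMM normalization between livers. Cebpa moved from -0.04 to -0.37 and Foxa2 from -0.01 to -0.44. The part of this common shift in the 3 calls was not tested. Without control ASO liver 3, a male, edgeR called Prox1 lower in males by 0.58 ± 0.09 (adjusted p = 0.000866) and Nfic higher by 0.25 ± 0.06 (adjusted p = 0.0162), 2 of 8 members, with 21.9% of all tested genes called. On log2(TPM + 1) with all livers Nfic was at -0.09 (limma, adjusted p = 0.575). The difference between males and females in the Upf3b-ASO effect was tested as an interaction. No gene passed in edgeR, with 647 at an unadjusted p under 0.05. Cebpa had the largest value among the members, 0.64 ± 0.30, with an adjusted p of 0.59. Without control ASO liver 3 it was 0.32 ± 0.14, with an adjusted p of 0.784, and again no gene passed. Without control ASO liver 4, which leaves liver 3 as the lone male of its group and assumes that it varies like the others, 3870 genes passed in edgeR. In Cebpa the treated females had 408.9 and 402.3 CPM and the treated males 510.2 and 483.7 CPM.

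The 5 tested genes whose profile over the 12 livers was most like that of Nfia were Rabgap1l, Diaph2, Smg6, Map3k20 and Fggy. Likeness was the root mean square difference of log2 CPM, each gene centred on its own mean, and was 0.126 to 0.197 for the 5 against a median of 0.816 over 8845 genes. Rabgap1l, a gene of 574.0 kb, was at 90.8, 82.1 and 31.6 CPM in the mean of DPBS, control ASO and Upf3b-ASO livers. Smg6, which encodes an endonuclease of NMD, was at 38.6, 37.7 and 11.6 CPM, Diaph2 at 21.6, 21.3 and 6.28 CPM, Map3k20 at 26.8, 25.2 and 10.5 CPM, and Fggy at 102.8, 107.0 and 40.04 CPM. These 5 span 157.0 to 716.1 kb. The 12 livers include the treated ones, whose low Nfia level led to its choice. Likeness to Nfia therefore largely ranks genes by a similar fall in those livers, and is no further evidence on Nfia. Other members were less like Nfia. Nfic, the nearest, ranked 257 with a difference of 0.559, and Prox1 ranked 377, Nfix 751, Nfib 950, Cebpa 1553, Foxa3 3160 and Foxa2 8046.

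Of 30 other hepatocyte transcription factors, all were found and 27 were tested. Against control ASO 1 was called higher and 2 were called lower, with 4.34% and 5.95% of all tested genes in those directions. The median log2 fold change of the 27 was -0.22. Atf5, a stress-response bZIP factor, was at 97.8 ± 10.99, 76.6 ± 34.5 and 164.1 ± 11.6 CPM with DPBS, control ASO and Upf3b-ASO. It rose by 1.16 ± 0.21 (log2, edgeR adjusted p = 0.00624). Onecut2 fell by 0.67 ± 0.15 (adjusted p = 0.0165) and Rxra, the shared partner of many nuclear receptors, by 0.39 ± 0.10 (adjusted p = 0.0269), from 501.7 ± 67.7 CPM with control ASO to 381.0 ± 5.55 CPM.

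Against DPBS, 1 of the 27 was called higher and 6 were called lower, with 3.57% and 5.36% of all tested genes, at a median of -0.32. Hnf4a, a nuclear receptor central to hepatocyte identity, was at 620.0 ± 33.1, 610.3 ± 8.40 and 545.5 ± 15.1 CPM. Its treated livers did not overlap the others, and the log2 fold changes of -0.16 ± 0.07 and -0.18 ± 0.07 did not pass (edgeR adjusted p = 0.178 and 0.154). Without control ASO liver 3, 11 of the 27 were called lower and 1 higher against control ASO, with 13.5% of all tested genes called lower and 11% higher. Against DPBS 13 were called lower and 2 higher, with 15.0% and 13.7% of all tested genes.

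Of 20 genes of secreted proteins and metabolic enzymes of hepatocytes, 19 were found and tested. Against control ASO 2 were called lower, with 5.95% of all tested genes, and none was called higher. Their median was -0.32 on the log2 scale, and -0.15 without control ASO liver 3. Pck1, the key enzyme of gluconeogenesis, fell by 0.66 ± 0.10 (edgeR adjusted p = 0.0034), from 3732 ± 178 CPM to 2364 ± 306 CPM, and Serpina1c by 0.60 ± 0.13 (adjusted p = 0.0183). Against DPBS 3 were called lower, Pck1, Serpina1c and Ahsg, with 5.36% of all tested genes. Without control ASO liver 3, 4 were called lower against control ASO and 5 against DPBS, with 13.5% and 15.0% of all tested genes called lower. None was called higher. Ttr was at 3534 ± 176 CPM with control ASO and 3858 ± 112 CPM with Upf3b-ASO, and Alb at 62590 ± 16940 and 49960 ± 19610 CPM. Neither passed (edgeR adjusted p = 0.398 and 0.0897).

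The tissue was checked by its markers. Alb, Ttr, Apoa1, Ahsg, Cps1 and Asgr1 summed to 31690 to 90960 TPM in every liver. None of the 6 was called against control ASO, and Ahsg was called lower against DPBS, with 5.36% of all tested genes. Summed markers of Kupffer cells were 159.7 to 268.1 TPM with DPBS, 155.8 to 490.0 TPM with control ASO and 190.8 to 340.1 TPM with Upf3b-ASO. The stellate sum was 135.7 to 259.1, 127.7 to 259.4 and 100.8 to 210.6 TPM, the endothelial sum 170.2 to 257.6, 105.2 to 260.6 and 157.3 to 243.1 TPM, and the cholangiocyte sum 18.3 to 34.6, 18.4 to 31.4 and 14.0 to 25.9 TPM. Leukocyte markers reached 14.8, 87.5 and 12.5 TPM, and erythroid markers 262.3, 1956 and 293.0 TPM. Of the 38 markers of these 6 types 23 were tested, among them 1 of 6 for cholangiocytes and 1 of 6 for leukocytes. With all livers, none of the 23 passed the test in either Upf3b-ASO comparison, and no marker was at 0 in all livers. Control ASO liver 3 had the lowest endothelial sum. Without it Stab1, Stab2 and Reln were called lower against control ASO, with 13.5% of all tested genes lower. Against DPBS, also without it, Stab1, Stab2, Kdr, Oit3, Hgf and Reln were called lower and Lyve1 higher. The hepatocyte markers Ahsg, Alb and Apoa1 were called lower there too. In that comparison 15.0% of all tested genes were called lower and 13.7% higher. The part of these endothelial and stellate genes in the members' calls without that liver was not tested.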

How the data were processed

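RNA of 12 livers was sequenced by the authors from TruSeq libraries and quantified with Salmon 0.7.2 against Ensembl cDNA of GRCm38. The deposited estimated counts are reads assigned per transcript, and the deposited TPM values were scaled by the authors for effective length and depth. Groups, sexes and replicate numbers came from the labels. The labels gave each file as 1 liver.

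Transcripts were joined to genes through GENCODE M21 (98.1% matched), and gene sums of estimated counts were rounded. The joined transcripts held 79.7 to 89.85% of TPM in Upf3b-ASO livers, 85.42 to 95.91% with DPBS and 89.46 to 91.45% with control ASO. TPM values were not adjusted for this except where called rescaled, with the joined genes set to a common total. Genes at 5 TPM or more in 4 or more livers were tested with edgeR 4.0.16 (quasi-likelihood, TMM, sex as covariate, all 12 livers, Benjamini-Hochberg adjustment, threshold 0.05). Transcripts needed 1 TPM or more in 4 or more livers. Fits were tested on simulated data. Alternatives used DESeq2 1.42.0 and limma 3.58.1, and 3 (rescaled TPM, sample quality weights and the interaction without each liver) were added after seeing the data. Members and lists were chosen with earlier results of these data known. Named genes were the members, isoforms with at least 10% of a member's TPM, Hnf4a, Alb, Ttr and up to 4 called genes per direction of each list, and the 5 genes most like Nfia, and 1 further gene and 1 sequence are not reported here. P-values measure spread between livers, and counts without molecular identifiers carry counting error. Same-numbered livers correlated in their deviations from the group means at a mean r of 0.491, and other livers of the same sex at 0.485, with 0.198 the lowest of the 12 same-number values. Each number holds livers of 1 sex, and by this check the numbers do not pair the livers beyond their sex. The block was still fitted as an alternative. Sequences came from GENCODE M21 and from the oligonucleotide table of the study.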

Additional observations from a re-analysis of the deposited data

Results flagged for a closer look

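Among 27 member and group combinations of 4 livers, 5 held a liver set apart in CPM by Dixon's gap criterion. Chance sets apart about 1 in 20 groups. In the control ASO group, liver 3 had 71.4 CPM of Nfib against 171.1 to 185.2 CPM in the others, and 332.3 CPM of Cebpa against 551.0 to 584.3 CPM. In the DPBS group, liver 3 had 59.7 CPM of Nfix against 43.5 to 45.7 CPM, and liver 2 had 575.5 CPM of Cebpa against 525.7 to 530.3 CPM. Upf3b-ASO liver 1 had 19.2 CPM of Foxa2 against 26.6 to 27.3 CPM in the other treated livers.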

How the results depend on the processing

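Genes called against control ASO numbered 910 in the analysis as described, 1584 with the DESeq2 Wald test, 347 and 334 with limma on log2(TPM + 1) and log2(TPM + 0.1), 519 without the sex covariate, 363 with only the 2 groups compared and 2867 with sample quality weights. Against DPBS the 790 calls became 1274, 325, 313, 477, 2478 and 2948 under the same settings, and 388 on rescaled TPM. For control ASO against DPBS the 1 call became 43 with DESeq2, 80 with quality weights and 0 under both limma settings, rescaled TPM, the length offset and the 2-group fit. Males against females gave 887 calls, and 3062 with limma on log2(TPM + 1). Leaving out 1 liver gave 434 to 2168 calls against control ASO, 400 to 2540 against DPBS, 0 to 5 between the reference groups and 581 to 1939 between the sexes, with the highest count of each without control ASO liver 3. For the Upf3b-ASO effect in males against females, chosen after seeing the data, it gave 0 to 3870 calls, with 0 in all cases but that without control ASO liver 4. For Nfia this difference, not tested, was -0.03 with all livers, -0.225 without Upf3b-ASO liver 3 and 0.147 without Upf3b-ASO liver 4. Transcripts called numbered 327 (574 with a TPM of at least 5, 94 to 877 without 1 liver), and transcripts with changed usage 34 (7 with a TPM of at least 5, 25 to 62 without 1 liver). With the replicate block, 175 transcripts and 22 usages were called, 0 genes between control ASO and DPBS, and Nfic lost its call against control ASO, as given above. No other call of a member changed under the block. Nfia was at -1.68 to -0.95 against control ASO and -1.70 to -1.02 against DPBS over all settings, and the values nearer 0 were those on TPM or with a length offset. Foxa1 rested on 66 to 248 counts per liver and the short Nfia transcripts on 37 to 141, which limits their precision.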
